A study of Mus musculus with 8 samples.

Results

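The glycocalyx genes described here are 40 genes for the sugar coat of the vessel wall. They comprise the syndecan and glypican core proteins, the enzymes that build and sulfate heparan sulfate, hyaluronan and chondroitin or dermatan sulfate chains, and the sulfatases and hyaluronidases that trim them. The list was written from gene function, with earlier results of these data known, and each gene was represented by its brightest probe set. Of the 40 genes, 37 were measured, each by 1 probe set, among 19505 genes with a symbol and 22204 probe sets tested. Ndst1, Glce and Hyal1 were not analysed here. Lung endothelial cells (EC) of 8 mice, 1 Clariom S array each, were compared: 4 mice treated with anti-TIE1, an antibody that blocks the function of the endothelial receptor Tie1, and 4 treated with control IgG. All mice were C57BL\6N, were injected under the skin with LLC cells, a mouse lung carcinoma line (Lewis lung carcinoma), at 8 weeks of age, and received 40 mg/kg of antibody 2 times per week into the abdominal cavity. Cells were sorted as CD31+ and negative for CD45, LYVE1, PDPN, Ter119 and the dead-cell dye DAPI. The titles of all 4 anti-TIE1 samples name TIE1, whereas the antibody field of 3 of them names TIE2, TIE3 or TIE4, and the protocol text speaks of liver where the source is lung. The samples were grouped by title. The arrays measured the bulk RNA of sorted lung EC of tumor-bearing mice, so fewer cells of a type and less RNA per cell cannot be told apart.

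The glycocalyx is the layer of membrane proteins and long sugar chains between the endothelium and the blood. Syndecans span the membrane, glypicans are held by a lipid anchor, and both carry heparan sulfate, a chain made in the Golgi by adding alternating sugars to a linker on the core protein and then placing sulfate groups on it. The pattern of sulfate sets which growth factors, chemokines and clotting inhibitors bind to the chain. Hyaluronan has no core protein and is extruded by synthases of the plasma membrane. Chondroitin and dermatan sulfate are made from the same linker by other enzymes. In lung capillaries the coat limits permeability and the access of leukocytes and tumor cells to the vessel wall.

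Gene expression was read as log2 of the intensity that the authors deposited. anti-TIE1 arrays were compared with IgG arrays by limma, which fits each probe set and moderates its spread across all of them, and p-values were adjusted over the 22204 probe sets by the method of Benjamini and Hochberg. No probe set in the table passed an adjusted p of 0.05, a share of 0%, and the smallest adjusted p was 0.344. At an unadjusted p of 0.05, 482 probe sets (2.17%) were higher and 700 (3.15%) lower in anti-TIE1-treated mice, 5.32% in all.

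Median intensity lay between 183.8 and 189.6 on the 8 arrays. The brightest of 23 background control probe sets averaged 7.87 log2, and levels at or below it may be background. The 23 controls are bins by share of G and C bases, and the brightest was applied to every gene. All 9 measured endothelial markers lay above it, with a list mean of 11.28 to 11.38 in anti-TIE1 arrays and 11.23 to 11.42 in IgG arrays. The spike-in controls added at hybridization were low (10.26 to 10.37 log2) on anti-TIE1 arrays 3 and 4 and IgG arrays 1 and 2, and high (10.64 to 10.93) on the others. Some markers of other cells differed between treatments at unadjusted p, and none at adjusted p. Of all probe sets, 2.17% were higher and 3.15% lower at unadjusted p. Of 7 lymphatic genes, 5 had a lower and 2 a higher mean (Flt4, 0.29, and Lyve1, 0.04). Their average was 9.02 to 9.09 in anti-TIE1 and 9.14 to 9.51 in IgG arrays, with 4 of the 7 lower at unadjusted p. The mean of 7 alveolar type 2 cell genes was 8.97 to 9.56 in anti-TIE1 and 8.56 to 9.16 in IgG arrays, with 3 higher, and that of 5 alveolar type 1 and airway genes was 8.12 to 8.65 in anti-TIE1 and 7.85 to 8.24 in IgG arrays, with 2 higher. Platelet genes averaged 8.58 to 8.84 in anti-TIE1 and 8.65 to 9.15 in IgG arrays, with 2 of 5 lower. Leukocyte genes averaged 7.06 to 7.29 in anti-TIE1 and 7.13 to 7.33 in IgG arrays, with 1 of 6 lower (Cd3e, -0.29) and 0 of 6 above the background control. Pericyte and smooth muscle genes averaged 7.55 to 7.59 in anti-TIE1 and 7.44 to 7.58 in IgG arrays, with 1 of 7 higher (Acta2, 0.20). Of the fibroblast and mesothelial genes, 0 passed unadjusted p. The part of these cells in the results below was not tested.

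Chst15 is the only measured member whose 2 groups did not overlap, 1 of 37 against 3.17% of all probe sets in either direction. Chst12, another of the chondroitin and dermatan sulfotransferases, had nearly equal group means. The pair was chosen by these values. To show the upstream DNA of this pair, the 250 bases before the annotated start are printed below from RefSeq (assembly GRCm38.p6), 5′ to 3′ on the strand of the gene. Chst15 has 2 starts in the table, and the window of the one farther upstream is shown, chr7:132317229-132317478 on the minus strand. The Chst12 window is chr5:140505359-140505608 on the plus strand. Capitals mark matches on either strand to the GC box GGGCGG, the Kruppel-like factor core CACCC and the aryl hydrocarbon receptor core GCGTG. No 2 matches overlap in these windows.
Chst15: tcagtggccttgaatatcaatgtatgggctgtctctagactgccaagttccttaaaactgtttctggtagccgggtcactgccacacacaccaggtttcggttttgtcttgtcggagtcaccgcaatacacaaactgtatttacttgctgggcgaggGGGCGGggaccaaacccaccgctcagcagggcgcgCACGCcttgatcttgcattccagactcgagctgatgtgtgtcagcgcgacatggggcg
Chst12: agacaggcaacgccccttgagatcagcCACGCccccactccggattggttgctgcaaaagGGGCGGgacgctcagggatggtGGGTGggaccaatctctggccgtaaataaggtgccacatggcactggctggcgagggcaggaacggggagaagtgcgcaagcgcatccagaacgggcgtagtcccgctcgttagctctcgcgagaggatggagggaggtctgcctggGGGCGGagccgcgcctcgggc
The Chst15 window holds 1 match to GGGCGG and 1 to GCGTG. That of Chst12 holds 2 to GGGCGG, 1 to CACCC and 1 to GCGTG. Neither holds the ETS motif CAGGAAG or the forkhead motif GTAAACA. Of the 37 measured members and the 3 not analysed here, 30 had such a window in the table, 35 windows in all because 5 had 2 starts. GGGCGG was found in 68.6% of these 35 windows, against 32.7% of all 32851 windows, and GCGTG in 45.7% against 28.2%. CACCC was found in 65.7% against 52.0%, CAGGAAG in 2.86% against 10.8%, and GTAAACA in 0% against 3.17%. A match is a run of letters and not a shown binding site.

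The members as a whole differed little between treatments. Of 37 members, 13 had a higher and 24 a lower mean in anti-TIE1-treated mice, and 0 passed an adjusted p of 0.05 (background 0%). At unadjusted p, 1 member was higher (Extl3; background 2.17%) and 1 lower (Chst15; background 3.15%), or 2 of 37 against 5.32% of all probe sets, a share near the background. The median log2 difference was -0.027 over the members and -0.0045 over all probe sets, and 64.9% of members and 51.8% of all probe sets lay below 0. Precision was set by 4 arrays in each group. The median size of the difference was 0.081 over the members and 0.069 over all probe sets, and the median half-width of the 95% interval was 0.22 over the members and 0.21 over all probe sets. For 36 of the 37 members the interval lay within a 1.5-fold change in either direction, and Sulf1 is the exception.

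**Figure D1:**
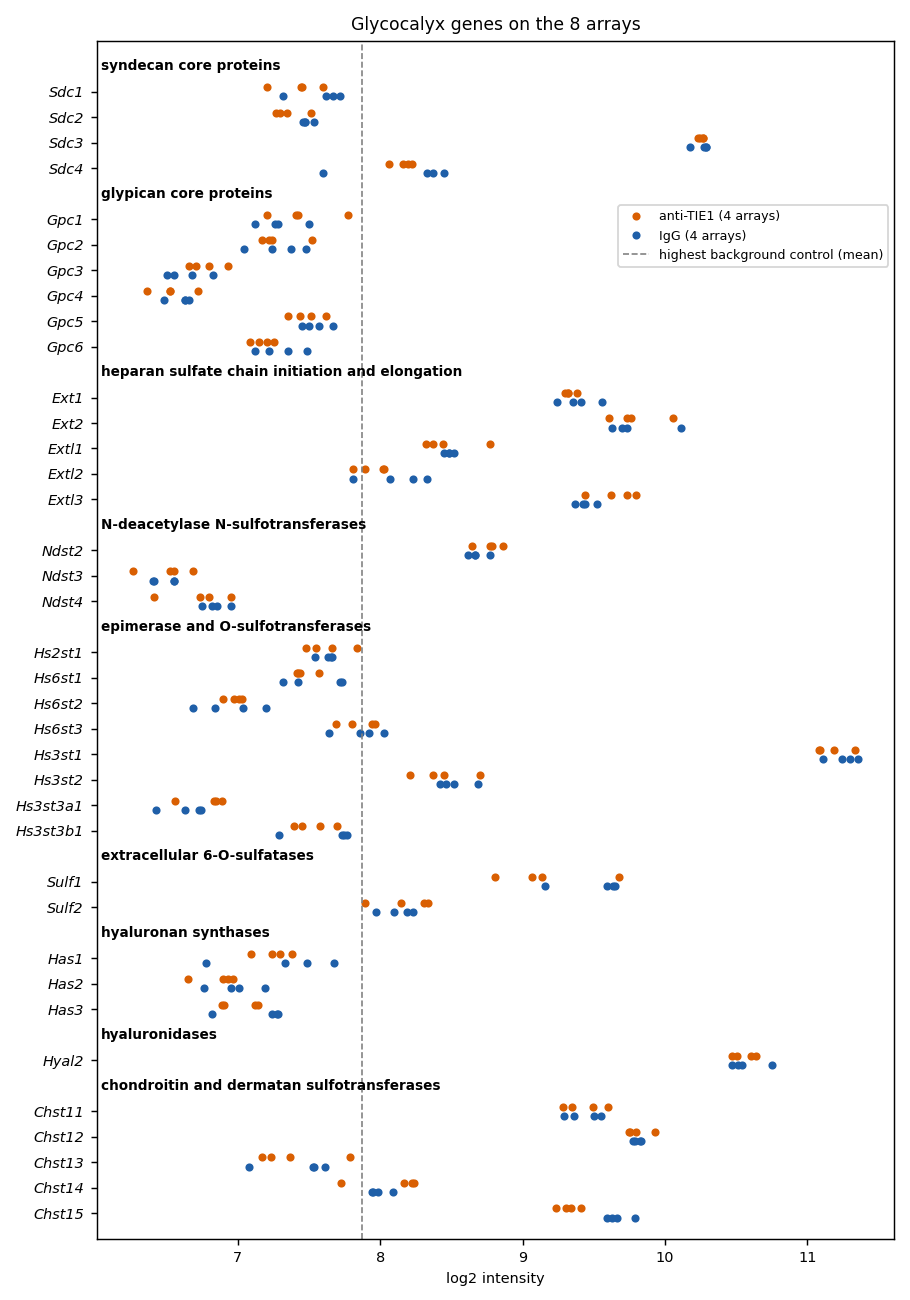
Log2 intensity (x axis) of the 37 measured members by role, with 1 point for each array, anti-TIE1 above IgG in each row. The dashed line is the mean of the brightest background control, 7.87, and 17 of the 37 members averaged above it. Only the points of Chst15 separate fully by treatment, as did those of 3.17% of all probe sets.

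Of the members, 17 (45.9%) averaged above the brightest background control, close to the 40.3% of all probe sets. They were 2 syndecans, none of the glypicans, all 5 exostosin genes, Ndst2, 2 of the O-sulfotransferases, both extracellular sulfatases, Hyal2 and 4 of the chondroitin sulfotransferases. Levels of different genes rest on different probes and were not ranked against each other.

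Core proteins had lower means more often than higher ones, without a member passing the test. Of 10 core proteins, 3 had a higher and 7 a lower mean, with a median log2 difference of -0.047 and a smallest unadjusted p of 0.11 in limma. The direction of this median turned with the hybridization controls, at -0.095 within the low arrays and 0.044 within the high ones. All 4 syndecans had lower means, at a median of -0.078. Syndecan shedding from the endothelium is a common measure of glycocalyx loss, and these arrays measure its messenger RNA only. Sdc2, a syndecan of vessel sprouting in zebrafish, was at 7.35, 7.29, 7.27 and 7.51 log2 in anti-TIE1 arrays 1 to 4 and at 7.45, 7.47, 7.47 and 7.53 in IgG arrays 1 to 4. anti-TIE1 array 4 overlapped the IgG arrays and the other 3 lay below them. The log2 difference was -0.13 (95% interval -0.29 to 0.04; limma adjusted p = 0.955). It was -0.18 without anti-TIE1 array 4 (unadjusted p = 0.030, adjusted p = 0.974). This was its only fit with 1 array left out at an unadjusted p under 0.05, and the highest was 0.251.

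Sdc1, which encodes the syndecan most often measured in blood, differed by -0.16 (95% interval -0.40 to 0.09), and like Sdc2 it lay below the background control. The Sdc1 difference was -0.25 without IgG array 1 (limma unadjusted p = 0.035, adjusted p = 0.991) and -0.085 without anti-TIE1 array 1 (unadjusted p = 0.453). Sdc3 was steady, with a log2 difference of -0.0019 and a 95% interval of -0.14 to 0.14. Sdc4, a co-receptor at focal adhesions, turned on 1 array. Its values were 8.19, 8.22, 8.06 and 8.16 in anti-TIE1 arrays and 8.33, 8.37, 8.45 and 7.60 in IgG arrays. IgG array 4 was the lowest of the 8, and the other 3 IgG arrays were above all 4 anti-TIE1 arrays. The difference was -0.027 over all arrays (95% interval -0.39 to 0.34) and -0.22 without IgG array 4 (limma unadjusted p = 0.014, adjusted p = 0.749). No other array left out gave an unadjusted p under 0.05.

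The 6 glypicans were divided, 3 with a higher and 3 with a lower mean, at a median log2 difference of -0.032, and none averaged above the background control. Gpc3, a glypican that restrains growth, was at 6.93, 6.71, 6.65 and 6.80 in anti-TIE1 arrays and at 6.55, 6.67, 6.82 and 6.50 in IgG arrays. The groups overlapped, with a difference of 0.13 (95% interval -0.07 to 0.34; limma adjusted p = 0.965). Gpc1, the glypican linked to flow sensing in EC, had a difference of 0.16 (95% interval -0.11 to 0.44). The other 4 glypicans lay between -0.12 (Gpc6) and 0.0024 (Gpc2).

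The 24 measured enzymes that make or sulfate chains were also divided. Of them, 9 had a higher and 15 a lower mean, with a median log2 difference of -0.030. Averaged over the members on each array, the enzymes were at 8.17, 8.18, 8.19 and 8.15 in anti-TIE1 arrays and at 8.21, 8.24, 8.17 and 8.22 in IgG arrays. The 10 core proteins averaged 7.61, 7.62, 7.54 and 7.59 in anti-TIE1 arrays and 7.61, 7.67, 7.63 and 7.55 in IgG arrays. The core mean minus the enzyme mean was -0.585 ± 0.048 log2 in anti-TIE1 and -0.593 ± 0.057 log2 in IgG arrays (SD, n = 4 each). The 2 treatments thus differed by 0.0079 in this balance, less than the SD of either group, and no test was run on such an average over members. Only 2 of the 10 core proteins and 12 of the 24 enzymes averaged above the background control, so much of both averages may be background. The levels of the 2 classes rest on different probes and were not ranked against each other.

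**Figure D2:**
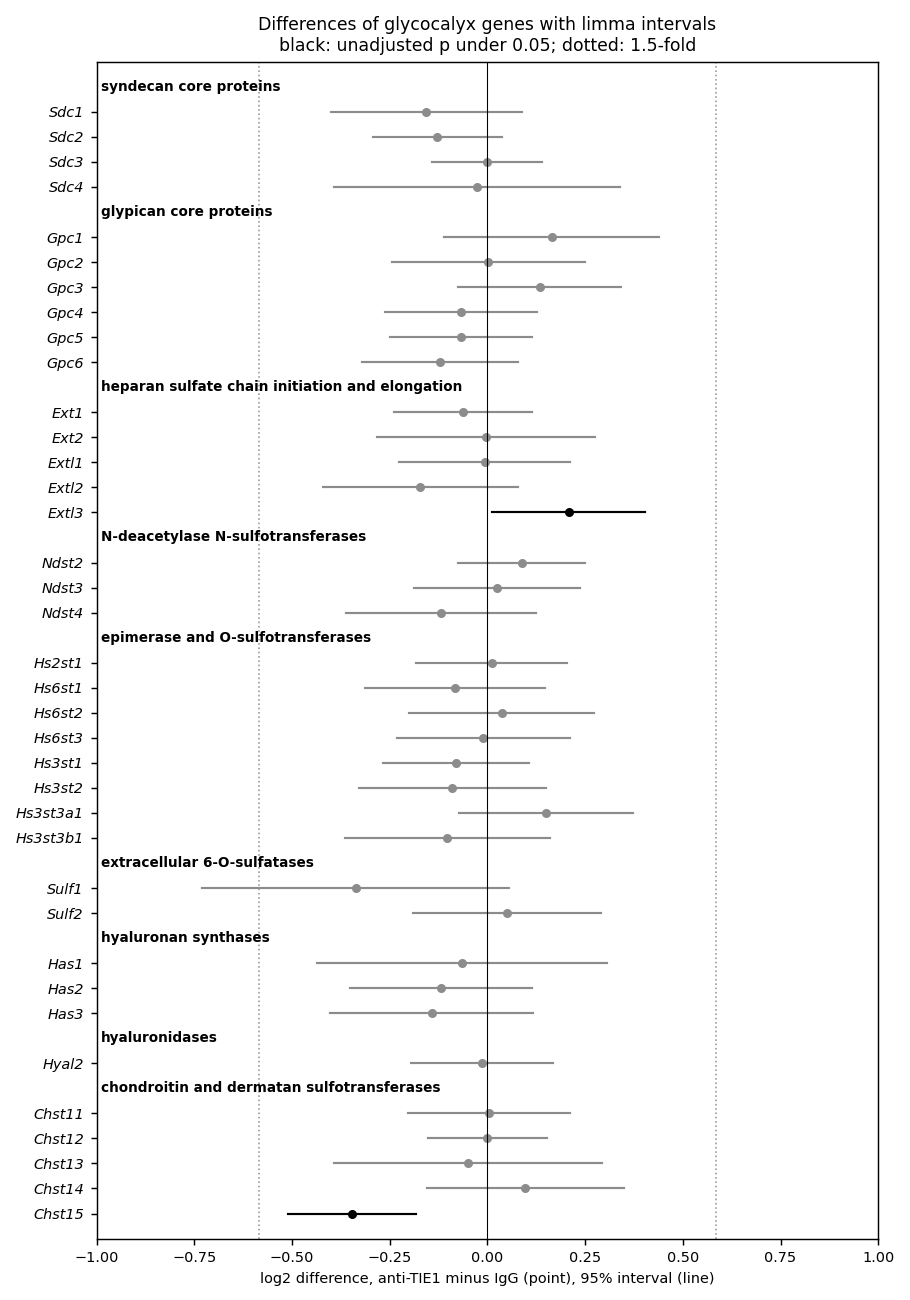
Log2 difference, anti-TIE1 minus IgG (x axis), for each member by role, with its 95% limma interval over 4 arrays a group. The intervals of Chst15 (-0.35) and Extl3 (0.21), in black, exclude 0 before adjustment, and only that of Sulf1 passes the dotted 1.5-fold lines.

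Among the 5 exostosin genes, which start and extend the heparan sulfate chain, Extl3 had the largest difference. Extl3 adds the first heparan sulfate sugar to the linker. It was at 9.80, 9.62, 9.44 and 9.73 in anti-TIE1 arrays and at 9.42, 9.37, 9.44 and 9.52 in IgG arrays. Of the anti-TIE1 arrays, 3 lay above every IgG array and array 3 lay within the IgG range. The means were 9.65 ± 0.16 in anti-TIE1 and 9.44 ± 0.07 in IgG arrays (SD, n = 4 each), a log2 difference of 0.21 (standard error 0.09) or 1.15-fold, with a limma unadjusted p of 0.040 and an adjusted p of 0.930. The difference stayed positive with any 1 array left out (0.16 to 0.28), but its unadjusted p was above 0.05 in 6 of the 8 such fits, as high as 0.11 without anti-TIE1 array 1.

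Ext1 and Ext2, which together form the polymerase, had log2 differences of -0.062 (95% interval -0.24 to 0.11) and -0.0049 (95% interval -0.28 to 0.27). Extl1 had a difference of -0.0073. Extl2, an enzyme that can end chain growth at the linker, had one of -0.17 (95% interval -0.42 to 0.08). Without IgG array 4 the Extl2 difference was -0.27 (limma unadjusted p = 0.016, adjusted p = 0.765). With another array left out its unadjusted p was above 0.05, up to 0.396. The exostosin median was -0.0073.

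The N-deacetylase N-sulfotransferases begin sulfation, and later steps depend on them. Ndst2 was at 8.64, 8.86, 8.77 and 8.79 in anti-TIE1 arrays and at 8.67, 8.77, 8.66 and 8.62 in IgG arrays. The groups overlapped, with a difference of 0.088 (95% interval -0.08 to 0.25; limma adjusted p = 0.966). Ndst3 and Ndst4, both below the background control, had differences of 0.025 and -0.12.

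Of the 8 measured O-sulfotransferases, 3 had a higher and 5 a lower mean, at a median of -0.046. The member of this group with the largest moderated t was Hs3st3a1, a 3-O-sulfotransferase, at 6.85, 6.83, 6.56 and 6.89 in anti-TIE1 arrays and 6.63, 6.74, 6.73 and 6.43 in IgG arrays. anti-TIE1 array 3 fell among the IgG arrays and the other 3 lay above them, and all values were below the background control. Its difference was 0.15 (95% interval -0.07 to 0.37; limma adjusted p = 0.965), and 0.23 without anti-TIE1 array 3 (unadjusted p = 0.040, adjusted p = 0.9998). With another array left out its unadjusted p was above 0.05, up to 0.411. Hs3st3b1, a related gene, had a difference of -0.10, which was -0.22 without IgG array 3 (limma unadjusted p = 0.037, adjusted p = 0.976). Its unadjusted p was above 0.05, up to 0.663, with another array left out.

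Hs3st1 makes the antithrombin-binding sequence that gives endothelial heparan sulfate its anticoagulant character. It was at 11.19, 11.33, 11.08 and 11.09 in anti-TIE1 arrays and at 11.36, 11.30, 11.11 and 11.24 in IgG arrays. The groups overlapped over most of their range. The difference was -0.081 with a 95% interval of -0.27 to 0.11. Hs2st1, the 2-O-sulfotransferase of heparan sulfate, differed by 0.010 (95% interval -0.18 to 0.20). The 3 6-O-sulfotransferase genes lay between -0.083 (Hs6st1) and 0.036 (Hs6st2).

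**Figure D3:**
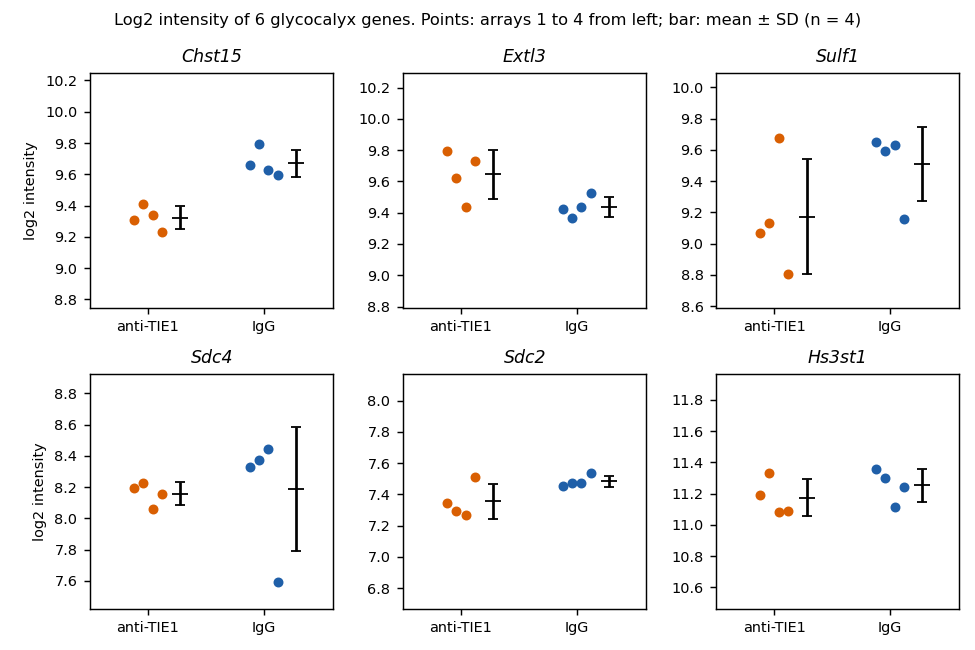
Log2 intensity (y axis) of Chst15, Extl3, Sulf1, Sdc4, Sdc2 and Hs3st1 on each array, with the mean ± SD of 4 arrays beside the points. Chst15 is the 1 gene of the 6 with no overlap. In Sulf1 and Sdc4, IgG array 4 lies apart from the other 3 IgG arrays, and in Sulf1 anti-TIE1 array 3 is the highest of all.

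Sulf1, an extracellular sulfatase that removes sulfate from finished heparan sulfate, had the widest interval of the members. It was at 9.07, 9.13, 9.68 and 8.80 in anti-TIE1 arrays and at 9.65, 9.59, 9.63 and 9.16 in IgG arrays. anti-TIE1 array 3 was the highest and IgG array 4 was close to anti-TIE1 arrays 1 and 2, so the groups overlapped. The means were 9.17 ± 0.37 in anti-TIE1 and 9.51 ± 0.24 in IgG arrays (SD, n = 4 each), and the difference of -0.34 (95% interval -0.73 to 0.06) did not pass the test (limma unadjusted p = 0.085, adjusted p = 0.951). It was -0.51 without anti-TIE1 array 3 (unadjusted p = 0.0049, adjusted p = 0.932) and -0.45 without IgG array 4 (unadjusted p = 0.029, adjusted p = 0.833). Its unadjusted p was above 0.05 with any other array left out. With the replicate number as a block it was 0.018 in limma (adjusted p = 0.951), but the replicate numbers share no more than a label. Sulf2, the related sulfatase, differed by 0.050 (95% interval -0.19 to 0.29).

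The 3 hyaluronan synthases had lower means, at a median of -0.12, and none passed the test or lay above the background control. Has3 was at 6.89, 7.12, 7.14 and 6.91 in anti-TIE1 arrays and at 7.28, 7.24, 6.82 and 7.29 in IgG arrays. IgG array 3 was the lowest of the 8 and the other 3 IgG arrays were the highest. The difference was -0.14 (95% interval -0.40 to 0.12; limma adjusted p = 0.966), and -0.25 without IgG array 3 (unadjusted p = 0.019, adjusted p = 0.976). With another array left out its unadjusted p was above 0.05, up to 0.453. Has1 had a difference of -0.065, which was -0.25 without IgG array 1 (limma unadjusted p = 0.046, adjusted p = 0.991) and 0.055 without IgG array 3 (unadjusted p = 0.734). Hyal2, a membrane-anchored hyaluronidase, was at 10.64, 10.60, 10.47 and 10.51 in anti-TIE1 arrays and at 10.52, 10.47, 10.54 and 10.75 in IgG arrays. The ranges nearly coincided, with a difference of -0.015 (95% interval -0.20 to 0.17).

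Chst15, which adds a second sulfate to chondroitin to give its highly sulfated E form, had the largest difference of the 37 members. It was at 9.31, 9.41, 9.34 and 9.23 in anti-TIE1 arrays and at 9.66, 9.79, 9.63 and 9.60 in IgG arrays. All 4 anti-TIE1 arrays lay below all 4 IgG arrays, as was so for 1.78% of all probe sets, and 3.17% did not overlap in either direction. The means were 9.32 ± 0.07 in anti-TIE1 and 9.67 ± 0.09 in IgG arrays (SD, n = 4 each), a log2 difference of -0.35 (standard error 0.07; 95% interval -0.51 to -0.18), or 1.27-fold lower. The limma unadjusted p was 0.00077 and the adjusted p was 0.570, and it lay between 0.276 and 0.998 over the alternatives. An exact two-sided Mann-Whitney test gave p = 0.029, the smallest that 4 against 4 allows. Groups without overlap always give this p, so it restates the lack of overlap and adds nothing to it.

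With any 1 array left out, the Chst15 difference lay between -0.38 and -0.31, with unadjusted p between 0.00097 and 0.0030. Within the arrays of low hybridization controls the difference was -0.44 (limma unadjusted p = 0.0061) and within the high ones -0.25 (unadjusted p = 0.070). These within-control fits were chosen after seeing the data. Each used only part of the arrays of each treatment, so they divide the same arrays and are not replications of the difference. The lymphatic gene mean was also lower in all 4 anti-TIE1 arrays than in any IgG array, though 2 of its 7 genes (Flt4 and Lyve1) had higher means. The part of this list in the Chst15 difference was not tested.

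None of the other 4 chondroitin and dermatan sulfotransferases passed an unadjusted p of 0.05 over all 8 arrays. Chst11 and Chst12, both chondroitin 4-O-sulfotransferases, had differences of 0.0037 (95% interval -0.20 to 0.21) and 0.00015 (95% interval -0.15 to 0.15). Chst14, which acts on dermatan, had one of 0.097 over all arrays and of 0.22 without anti-TIE1 array 4 (limma unadjusted p = 0.016, adjusted p = 0.974). With another array left out the unadjusted p of Chst14 was above 0.05, up to 0.706. Chst13 had a difference of -0.050 (95% interval -0.39 to 0.29). With 1 array left out it lay between -0.18 (without anti-TIE1 array 3) and 0.024 (without anti-TIE1 array 2).

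Around the members, 71 further genes of the same pathway were listed, and 67 were measured. Of these, 30 had a higher and 37 a lower mean, with a median log2 difference of -0.020. At unadjusted p, 1 was higher and 2 were lower, against 2.17% and 3.15% of all probe sets, and 0 passed an adjusted p of 0.05. The intervals of 63 of the 67 lay within 1.5-fold. These counts, like those of the members, lay near the background.

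Xylt1, a xylosyltransferase that starts the linker on the core protein, averaged 7.53 ± 0.20 in anti-TIE1 and 7.86 ± 0.20 in IgG arrays (SD, n = 4 each), a log2 difference of -0.34 (limma unadjusted p = 0.020, adjusted p = 0.896). Both means were below the background control. Cd44, a hyaluronan receptor that can itself carry chains, averaged 7.18 ± 0.22 in anti-TIE1 and 7.71 ± 0.43 in IgG arrays, a difference of -0.53 (limma unadjusted p = 0.021, adjusted p = 0.896). Mmp9, a protease that can shed syndecans, averaged 6.87 ± 0.13 in anti-TIE1 and 6.56 ± 0.25 in IgG arrays, a difference of 0.31 (limma unadjusted p = 0.030, adjusted p = 0.930). The groups of all 3 genes overlapped and their means were below the background control.

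In the other lists, the gene with the largest moderated t did not pass an unadjusted p of 0.05. Podxl, the sialomucin podocalyxin of the endothelial surface, had a difference of 0.12 (95% interval -0.05 to 0.29). Stab1, a scavenger receptor, had one of -0.13 (95% interval -0.29 to 0.04). Csgalnact2, which starts the chondroitin chain, had one of 0.14 (95% interval -0.05 to 0.34), and Hpse2, a protein related to heparanase, one of 0.18 (95% interval -0.10 to 0.46). Papss1, which makes the sulfate donor, differed by -0.12 and Hs3st5, a further 3-O-sulfotransferase, by 0.072. Lyve1, the hyaluronan receptor used to remove lymphatic cells in the sort, was at 12.00 ± 0.06 in anti-TIE1 and 11.96 ± 0.15 in IgG arrays (SD, n = 4 each), well above the background control, while the sort had selected against LYVE1 protein at the cell surface. It was named after its values were seen.

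**Figure D4:**
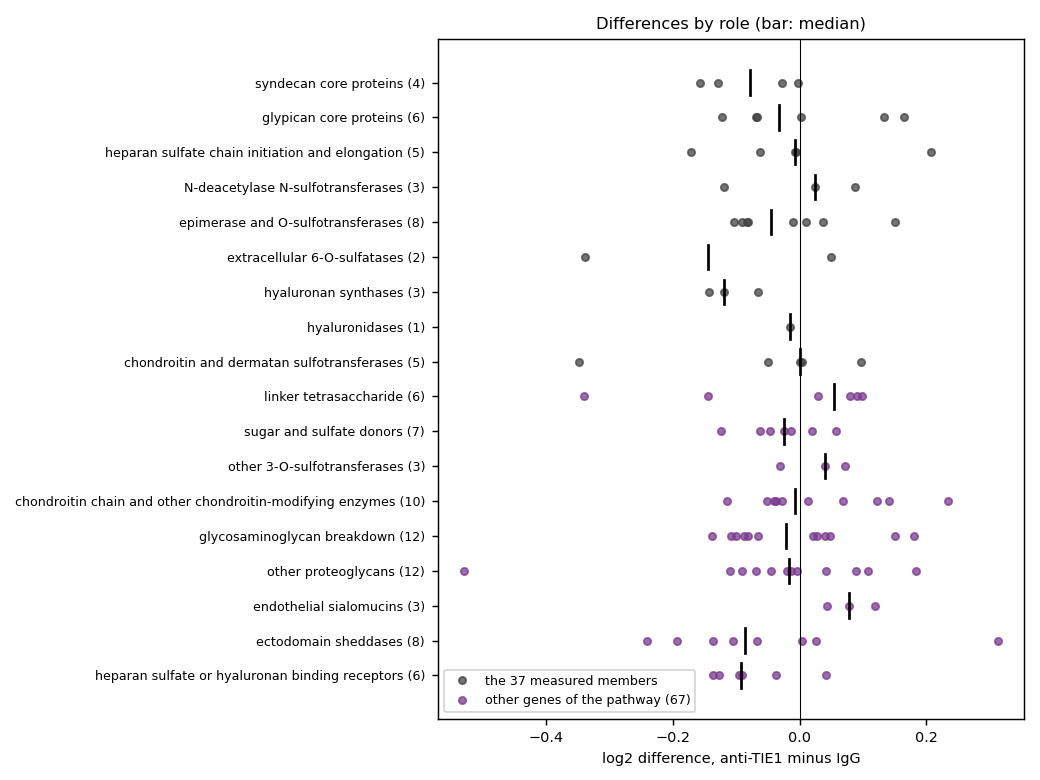
Log2 difference, anti-TIE1 minus IgG (x axis), of each measured gene by role, with the number of genes in parentheses; grey points are the 37 members, purple points the 67 other genes of the pathway, and the bar is the median of the row. Most points lie within 0.2 of 0, and the members beyond it are Chst15 (-0.35), Sulf1 (-0.34) and Extl3 (0.21).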

How the data were processed

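RNA of EC sorted from lungs of LLC tumor-bearing mice was hybridized to Clariom S mouse arrays, 4 from anti-TIE1-treated and 4 from IgG-treated mice. The authors deposited a linear intensity for each probe set and array, already normalized across the 8 arrays by a method not given in the sources used here; 2 probe sets had values on some arrays only and 2 could not be tested. 0 columns of other samples were found. Log2 of these deposited values was analysed as it stood. Of 29129 probe sets, 6923 are controls, and 22204 of the others were tested with limma 3.58.1 in R 4.3.3 (anti-TIE1 minus IgG, eBayes without trend, Benjamini-Hochberg adjustment). Symbols came from GEO's platform annotation, in which 19572 tested probe sets have 1 symbol and 0 have several; the rest are unnamed here. Each of the 8 samples is labelled a biological replicate.

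Values per array were given for members at an unadjusted p under 0.05 or without overlap and for the member with the largest absolute t in each of 9 roles; those of Sdc4 and Hs3st1 were added after their values were seen. Outside the members, genes at an unadjusted p under 0.05 and otherwise the largest absolute t of a list were named. The members and lists were chosen with earlier results of these data known. Alternatives covered each array left out, the Mann-Whitney test, blocks for the replicate number and for the hybridization controls, weights for arrays, other variance models, other normalizations and a filter on dim probe sets. Limma was tested on simulated data. The 5 promoter motifs were searched on both strands.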

Additional observations from a re-analysis of the deposited data

Results flagged for a closer look

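In 82 groups of 4 arrays, made up of the members and their averages in each treatment, 11 held an array whose gap to the others, as a share of the range of the group, exceeded the 95% critical value of Dixon's test. Chance gives about 1 in 20 such groups. IgG array 4 was low in Sdc3 (10.18 against 10.28 to 10.29 in the other IgG arrays; gap 0.876 of the range), Sdc4 (7.60 against 8.33 to 8.45; gap 0.861), Gpc4 (6.48 against 6.63 to 6.66; gap 0.839) and Sulf1 (9.16 against 9.59 to 9.65; gap 0.874). IgG array 3 was low in Hs3st3b1 (7.29 against 7.73 to 7.77; gap 0.916), Has3 (6.82 against 7.24 to 7.29; gap 0.908) and Chst13 (7.08 against 7.53 to 7.61; gap 0.842), and high in the average of the sulfatases and hyaluronidases (9.45 against 9.38 to 9.39; gap 0.907).

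Among anti-TIE1 arrays, array 2 was high in Hs6st1 (7.57 against 7.42 to 7.44; gap 0.88) and array 4 was low in Chst14 (7.72 against 8.17 to 8.24; gap 0.873). Array 3 was low in the core mean minus the enzyme mean (-0.656 against -0.569 to -0.553; gap 0.837). The cause of these gaps was not tested.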

How the results depend on the processing

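Over all probe sets, 0 passed an adjusted p of 0.05 under every alternative with all 8 arrays, and between 0 and 18 with 1 array left out (18 without IgG array 4). The count at unadjusted p was 1182, against 641 among probe sets at or above the median level, fewer being tested, and 703 by the exact Mann-Whitney test. With 1 array left out this count lay between 1038 and 1292. No member passed an adjusted p in any alternative. Members higher at unadjusted p numbered 1, against 0 within the low and 0 within the high hybridization controls, 0 by Mann-Whitney, and 0 to 2 with 1 array left out. Members lower numbered 1, against 4 within the low controls (Sdc4, Extl2, Hs3st1 and Chst15) and 2 within the high ones (Sdc1 and Has1), and 1 to 4 with 1 array left out (4 without IgG array 4). Without IgG array 4, 1290 of all probe sets, in either direction, passed unadjusted p. These within-control counts and those of named members were chosen after seeing the data, and rest on 2 against 2 arrays. Over all probe sets no within-control count was made, so those member counts have no background beside them. With the replicate block, 2 members were lower (Sulf1 and Chst15) and 1 was higher (Extl3), beside 1141 of all probe sets in either direction. The replicate numbers share no more than a label, since deviations of same-numbered arrays correlated between -0.050 and 0.0066. The core protein median of -0.047 was -0.095 within the low and 0.044 within the high controls, and -0.093 (without IgG array 4) to -0.015 (without anti-TIE1 array 3) with 1 array left out. The Hyal2 difference of -0.015 was 0.0050 with array weights and up to 0.046 (without IgG array 4), down to -0.047. With 1 array left out, 15 members changed sign at least once and 22 did not. The causes were not tested. Array brightness has no count, and levels at or below the brightest background control, 7.87 log2, may be background.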
